A study of Mus musculus with 8 samples.

Results

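Cxcl14 and 8 other chemokine ligands, Cxcl9, Cxcl10, Cxcl12, Cxcl16, Cx3cl1, Ccl2, Ccl6 and Ccl9, were followed in the transcriptomes of mouse hearts. They are 9 of the 17911 genes in the deposited table, taken from it by gene symbol, and all 9 had reads in every heart. Cxcl14 and Cxcl9 were chosen by their normalized read counts, as ligands that differed between the sexes in these same hearts, so their sex difference is described here without a test, and nothing is read from their place in a count of calls. The other 7 ligands were named with earlier results of these data known, and their differences were tested over the whole table.

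RNA was sequenced from single whole hearts of wild-type C57Bl6/J mice, 4 female and 4 male, which carried no transgene, deletion or treatment according to the labels. The mice are called adult, aged 4 weeks by the design text and 4 to 6 weeks by the protocol. The labels tie each library to an individual heart and put all 8 in the same batch. Total RNA is named as the molecule, although the protocol speaks of small RNA and a kit for it. Levels below are normalized read counts, that is, reads of a gene divided by a size factor for each heart, and they are given in the order female replicates 1, 2, 3 and 4, then male replicates 1, 3, 4 and 5.

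Chemokines are small secreted proteins that bind glycosaminoglycans on cell surfaces and matrix and steer cells through G protein-coupled receptors. Those of the CXC class carry a residue between the first pair of cysteines, those of the CC class do not, and Cx3cl1 is a transmembrane protein with its chemokine domain on a mucin stalk. Some, such as Cxcl12, are made constitutively and hold cells in place, whereas others, such as Cxcl9, Cxcl10 and Ccl2, are induced by cytokines and recruit T cells or monocytes. In the heart, stromal cells, endothelium and resident macrophages are known sources of chemokines.

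The reads of a heart, summed over the genes of the deposited table, came to between 51.7 M and 75.7 M reads. The labels state 80 M, an unlike measure, since reads outside these genes are not in the sums. All 8 cardiomyocyte markers examined were measured, the lowest at a mean of 119873 normalized reads. Female replicate 4 and male replicate 5 had the fewest reads, and male replicate 5 stood apart for several immune genes. Without male replicate 5 the number of genes called across the table rose from 208 to 516, and without each of 6 other hearts, all but female replicate 1, it was between 77 and 137. For the ligands and receptors followed and the interferon-induced genes named, values are given where leaving out 1 heart ended a call, made one or turned a direction. They are also given where it moved a receptor's difference widely. For the macrophage markers only the count of calls is given, and for other genes named below no such values are given.

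Cxcl14 is encoded on the minus strand at chr13:56288643-56296551 and Cxcl9 on the minus strand at chr5:92321347-92328079 (mm10, GENCODE vM21). The gene of Cxcl10 lies next to that of Cxcl9, at chr5:92346638-92348889 on the same strand, 18.6 kb away. The 250 bases before the RefSeq start (GRCm38.p6) of these 3 genes are shown, on the strand of the gene, to set the promoters of the pair that was lower in female hearts beside that of the neighbour. Capitals mark matches to 5 short motifs.
Cxcl14 (chr13:56296552-56296801, minus strand): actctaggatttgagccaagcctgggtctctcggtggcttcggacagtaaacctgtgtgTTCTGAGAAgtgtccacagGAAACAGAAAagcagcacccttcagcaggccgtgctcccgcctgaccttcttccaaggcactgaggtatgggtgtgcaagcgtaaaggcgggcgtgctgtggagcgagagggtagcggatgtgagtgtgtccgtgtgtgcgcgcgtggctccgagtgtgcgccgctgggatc
Cxcl9 (chr5:92328080-92328329, minus strand): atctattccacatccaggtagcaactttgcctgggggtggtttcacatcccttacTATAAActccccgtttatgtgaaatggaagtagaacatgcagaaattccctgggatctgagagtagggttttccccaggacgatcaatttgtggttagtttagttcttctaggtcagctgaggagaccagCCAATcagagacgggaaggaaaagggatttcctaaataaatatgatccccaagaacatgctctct
Cxcl10 (chr5:92348890-92349139, minus strand): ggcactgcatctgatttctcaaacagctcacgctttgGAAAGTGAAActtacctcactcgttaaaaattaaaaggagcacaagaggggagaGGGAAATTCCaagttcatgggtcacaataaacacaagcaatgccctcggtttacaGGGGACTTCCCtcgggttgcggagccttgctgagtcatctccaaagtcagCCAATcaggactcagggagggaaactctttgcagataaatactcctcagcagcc

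Both strands were searched. GAAANNGAAA, a form of the interferon-stimulated response element, occurred in the promoter of Cxcl14 at 172 to 163 bases before the start and in that of Cxcl10 at 213 to 204 bases, and in 2.98% of 32851 mouse promoters of the same length. TTCNNNGAA, the interferon gamma activated site, occurred in that of Cxcl14 at 191 to 183 bases, and in 7.02% of all. The NF-kappaB consensus matched 3 times in that of Cxcl10, with a pair of overlapping matches, and was held by 7.25% of all. TATAAA, at 195 to 190 bases in Cxcl9, was in 12.4% of all promoters, and CCAAT, at 65 to 61 bases in Cxcl9 and 54 to 50 bases in Cxcl10, in 33.8%. In both of these neighbours CCAAT lies within the same 11-base run, cagccaatcag. The full oestrogen (GGTCANNNTGACC) and androgen (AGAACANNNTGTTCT) response elements had no match in the windows of the 7 members whose promoters were in the table, and were held by 0.0639% and 0.00913% of all promoters. Such matches are letters in a window, not measured sites, and their relation to the levels was not tested.

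Cxcl14, a CXC chemokine of epithelium, fat and stroma, was lower in female hearts. Its normalized read counts were 575, 725, 679 and 625 in the female hearts and 1035, 1082, 1020 and 1075 in the male hearts. The highest female heart thus lay below the lowest male heart. The mean was 651 ± 65.2 (SD, n = 4) in female and 1053 ± 30.0 (SD, n = 4) in male hearts, 1.62-fold higher in males, and the log2 difference, female minus male on log2(normalized count + 1), was -0.70. Over the 20 other ways of computing it, which include leaving out each heart, this difference ran from -0.77 to -0.64.

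Cxcl9, a ligand of Cxcr3 that interferon gamma induces in macrophages and endothelium, was the other ligand picked for its difference. The female hearts had normalized read counts of 248, 272, 237 and 228, and the male hearts 366, 324, 378 and 354. Here too the sexes did not overlap. The mean was 246 ± 19.2 (SD, n = 4) in female and 355 ± 23.5 (SD, n = 4) in male hearts, a log2 difference of -0.53, with a range of -0.58 to -0.45 over the same 20 alternatives.

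**Figure D1:**
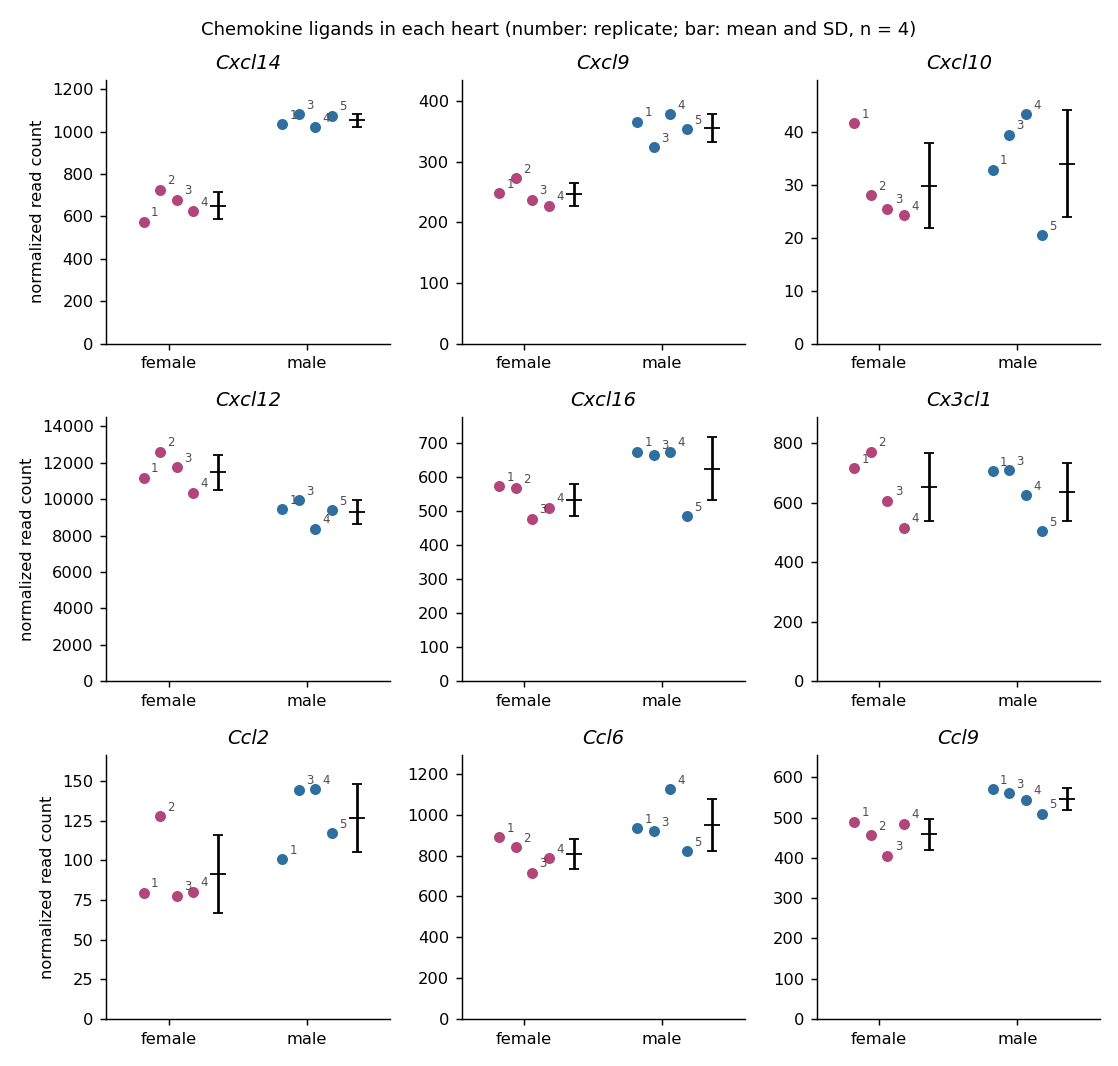
Normalized read count of each of the 9 ligands in each heart (points, with the replicate number; female left, male right), with the mean and SD of each sex (n = 4). The sexes are apart for Cxcl14, Cxcl9 and Ccl9, with female hearts lower, and for Cxcl12, with female hearts higher.

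Cxcl10, which shares the receptor Cxcr3 with Cxcl9 and is likewise induced by interferon, was the member with the fewest reads. It had normalized read counts of 41.7, 28.1, 25.6 and 24.4 in female hearts and 32.9, 39.6, 43.5 and 20.5 in male hearts. The sexes overlapped over most of their range, and the lowest heart of all was male replicate 5. Between the sexes the log2 difference was -0.16 (95% interval -0.73 to 0.40, limma adjusted p = 0.816), so a difference as large as that of Cxcl9 lies within the interval. Leaving out 1 heart gave -0.38 (without male replicate 5) to -0.03 (without male replicate 4), and with total reads as a covariate the sign turned, to 0.13. Of the exon bases of Cxcl10, 133 (5.91%) also belong to Art3 on the other strand, a gene with a mean of 20896 normalized reads in female hearts. Whether the counting used strand is not known here, so reads of the overlap could come from either gene.

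Cxcl12, or SDF-1, retains stem and immune cells through Cxcr4 and is scavenged by Ackr3, and it went the other way. Its normalized read counts were 11180, 12596, 11741 and 10339 in female hearts and 9428, 9942, 8366 and 9391 in male hearts. Every female heart was above every male heart. The mean was 11464 ± 950 (SD, n = 4) against 9281 ± 660 (SD, n = 4), a log2 difference of 0.30 ± 0.07 (SE) that did not pass the threshold of 0.05 (limma adjusted p = 0.0668). It did pass without female replicate 4, the female heart with the least Cxcl12 (log2 difference 0.35, limma adjusted p = 0.0312), and with DESeq2 (adjusted p = 5.18e-04). Cxcl12 lies at chr6:117168535-117181367 on the plus strand.

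Ccl9 and Ccl6 are CC chemokines of rodent myeloid cells that attract monocytes and other leukocytes through Ccr1. They are neighbours on the minus strand of chromosome 11, Ccl9 at chr11:83572919-83578636 and Ccl6 at chr11:83587882-83593087, 9.25 kb apart. Ccl9 had normalized read counts of 490, 456, 406 and 485 in female hearts and 570, 561, 545 and 509 in male hearts. The sexes did not overlap, although female replicate 1 and male replicate 5 came close to each other. Ccl9 had a log2 difference of -0.25 ± 0.07 (SE), with a limma adjusted p = 0.119, and DESeq2 gave an adjusted p = 0.0450. The authors' deposited table likewise lists an adjusted p of 0.0450 for Ccl9.

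For Ccl6 the female hearts had normalized read counts of 889, 841, 717 and 787 and the male hearts 933, 919, 1124 and 822. The sexes overlapped, with male replicate 5 within the female range and male replicate 4 highest of all. This gave a log2 difference of -0.23 (95% interval -0.44 to -0.02, limma adjusted p = 0.274). Ccl6 and Ccl9 had similar profiles over the hearts, with a root mean square difference of their centred log2 levels of 0.117. This was not particular to these neighbours, since Cxcl16 was at 0.101 from Ccl6 and 0.122 from Ccl9.

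Ccl2, or MCP-1, brings monocytes from the blood through Ccr2. Its normalized read counts were 79.5, 128, 77.7 and 80.4 in female hearts and 101, 145, 145 and 117 in male hearts. Of the female hearts only replicate 2 reached the male range. Ccl2 had a log2 difference of -0.48 (95% interval -0.88 to -0.09), close to that of Cxcl9 but with a wider spread, and did not pass the test (limma adjusted p = 0.217). It ran from -0.69 to -0.34 over the 20 alternatives and passed in 0 of them. Ccl2 lies at chr11:82035571-82037453 on the plus strand, 8.26 kb before Ccl7.

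Cxcl16 and Cx3cl1 are the 2 ligands that also exist as transmembrane proteins, which Adam10 and Adam17 shed from the cell. Cxcl16 (chr11:70453983-70459984, minus strand) had normalized read counts of 574, 568, 478 and 510 in female hearts and 675, 667, 675 and 486 in male hearts. Male replicate 5 lay among the female hearts, and the other 3 male hearts were close together above them. The log2 difference was -0.22 over all hearts (limma adjusted p = 0.350). Without male replicate 5 it was -0.34 and passed (limma adjusted p = 0.0281). Exons of Zmynd15 on the other strand cover 552 bases (18.3%) of those of Cxcl16, and Zmynd15 had means of 259 normalized reads in female and 358 in male hearts. The share of Cxcl16 reads that came from Zmynd15 was not tested. Of the 50-base words of the transcripts of the other members, 3.59% in Cxcl10, 1.97% in Ccl9 and 0.472% in Cxcl9 also occur in other genes, and 0% in Cxcl14, Cxcl12, Cx3cl1, Ccl2 and Ccl6.

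Cx3cl1, or fractalkine, tethers and guides cells that carry Cx3cr1 (chr8:94772009-94782427, plus strand). The normalized read counts of Cx3cl1 were 716, 771, 607 and 516 in female hearts and 706, 708, 626 and 503 in male hearts. The sexes overlapped over nearly all of their range. The 3 hearts with the fewest reads, female replicates 3 and 4 and male replicate 5, also had the 3 lowest levels of Cx3cl1, and the part of depth in this was not tested. Cx3cl1 had a log2 difference of 0.03 (95% interval -0.30 to 0.37, limma adjusted p = 0.940), and its sign turned in 5 of 20 alternatives, among them the fits without female replicate 1 (-0.016), female replicate 2 (-0.052) or male replicate 5 (-0.074).

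Of the 9 ligands, then, 2 passed limma at an adjusted p under 0.05, both lower in female hearts and both picked for that difference, so that this count is no result. Of all genes 1.16% passed, 0.687% lower and 0.475% higher in female hearts. None of the 7 others passed, and 4 of those 7 had an unadjusted p under 0.05. The share of all genes under that unadjusted cut is not given here. Counts at it, in this paragraph and below, therefore stand without a background. DESeq2 called 4 of the 9, Cxcl12 and Ccl9 beside the 2 picked, against 3.85% of all genes, a share that the authors' deposited table also gives (3.85%). In 3 of the 9 the female hearts lay wholly below the male hearts (4.82% of all genes) and in 1 wholly above (4.52% of all genes), which makes 4 of 9 without overlap beside 9.35% of all genes. The log2 difference was negative in 7 of 9 ligands with a median of -0.23, against a median of 0.00 over all genes, of which 49.1% were negative. Nothing is read from these counts about the family, since its members were chosen with such results known. In whole-heart RNA, fewer cells of a type and less RNA per cell cannot be told apart.

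**Figure D2:**
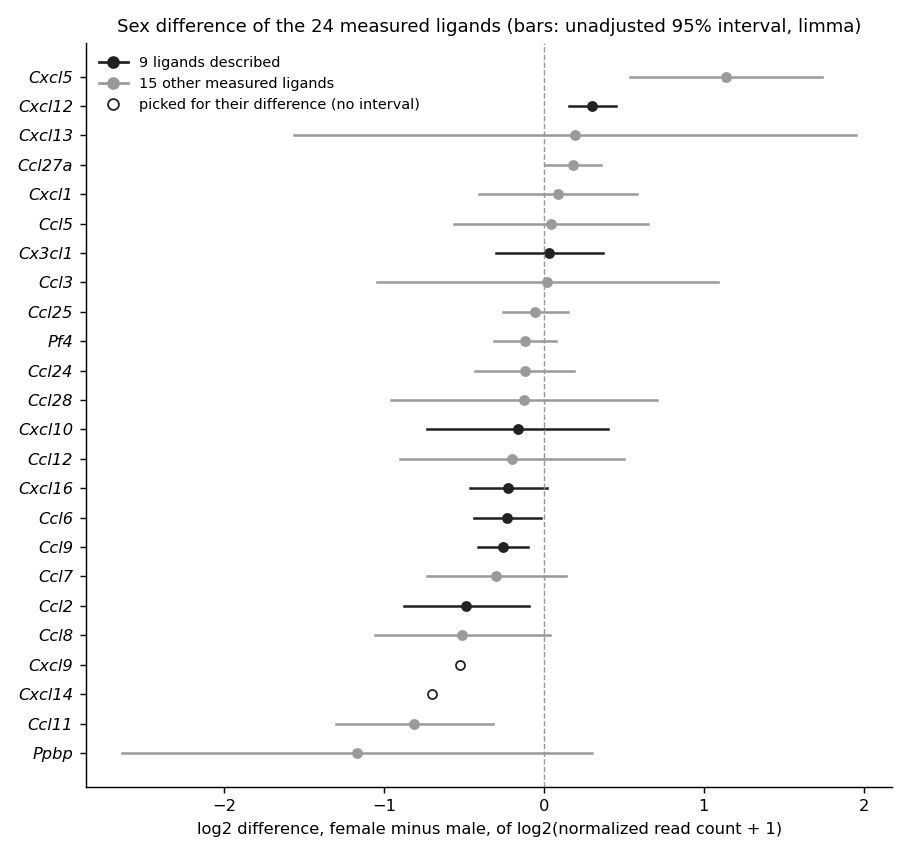
Log2 difference, female minus male, of log2(normalized read count + 1) for the 24 measured chemokine ligands, with the unadjusted 95% interval from limma; black marks the 9 ligands described and open points the 2 picked for their difference, drawn without an interval. Cxcl12 lies at 0.30 on the side of female hearts, and Cxcl14 lies at -0.70.

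A list of 29 further chemokine ligands held 15 that were measured. None of the 15 passed limma, 3 had an unadjusted p under 0.05, edgeR called 0 and DESeq2 1. Their log2 differences ran from -1.17 to 1.14 with a median of -0.12, and 9 were negative. Cxcl5 and Ccl11 were singled out once their values were known, as the only 2 of the 15 whose sexes did not overlap, beside 9.35% of all genes. Cxcl5, which attracts neutrophils through Cxcr2, had normalized read counts of 28.1, 43.6, 34.1 and 26.8 in female and 10.1, 18.1, 20.5 and 10.9 in male hearts (log2 difference 1.14, limma adjusted p = 0.0749). DESeq2 gave Cxcl5 no adjusted p and so could not call it. Ccl11, or eotaxin, had normalized read counts of 85.4, 63.0, 80.9 and 40.2 in female and 107, 92.9, 124 and 138 in male hearts. Female hearts were lower in Ccl11 and higher in Cxcl5. The log2 difference of Ccl11 was -0.81 (limma adjusted p = 0.114), and DESeq2, which called it, gave an adjusted p = 0.0209.

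Compared per kilobase of exon, since longer transcripts give more reads, the 9 ligands spanned a wide range. Among the 9, Cxcl12 led with 1269 ± 170 normalized reads per kb (SD, n = 8), above Ccl6 in each of the 8 hearts and without overlap. Ccl6 had 490 ± 68.0 and Cxcl14 466 ± 120 normalized reads per kb, and these 2 overlapped. Ccl6 was above Cxcl14 in all 4 female hearts, with means of 450 against 356 normalized reads per kb, and Cxcl14 above Ccl6 in 3 of 4 male hearts, with means of 576 against 529. Cxcl16 followed with 192 ± 27.9 normalized reads per kb, apart from Cxcl14, but overlapping Ccl9 with 165 ± 18.4. Ccl9 and Cx3cl1, the latter at 164 ± 24.9 normalized reads per kb, could not be ordered either, with Ccl9 above in 5 of 8 hearts. Below them and apart from Cx3cl1 came Cxcl9 with 99.8 ± 20.4 and, overlapping it, Ccl2 with 95.9 ± 25.1 normalized reads per kb. Cxcl10 was lowest of the 9, with 14.2 ± 3.87 normalized reads per kb, apart from Ccl2. Of the 15 further ligands, Pf4 came between Cxcl12, which it overlapped, and Ccl6, with 853 ± 93.4 normalized reads per kb, while Ccl3, Cxcl5 and Ccl28 had means below that of Cxcl10.

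The makeup of the ligand pool was described by the share of each gene in the summed normalized reads per kb of all 24 measured ligands. Cxcl12 made up 32.1 ± 1.85% (SD, n = 4) of it in female and 24.1 ± 2.44% (SD, n = 4) in male hearts. Cxcl14 had a share of 8.16 ± 0.735% in female and 12.2 ± 0.654% in male hearts. Both shares were apart between the sexes, Cxcl12 above in female and Cxcl14 above in male hearts. Cxcl14 was picked for its lower level in female hearts, so its share restates that choice. Since shares sum to a whole, one gene's share moves with another's level. Pf4, a chemokine of platelets and megakaryocytes, took 18.8 ± 1.91% in female and 18.8 ± 1.79% in male hearts. Cxcl9, likewise picked for its difference, accounted for 1.87 ± 0.0611% in female and 2.49 ± 0.159% in male hearts.

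**Figure D3:**
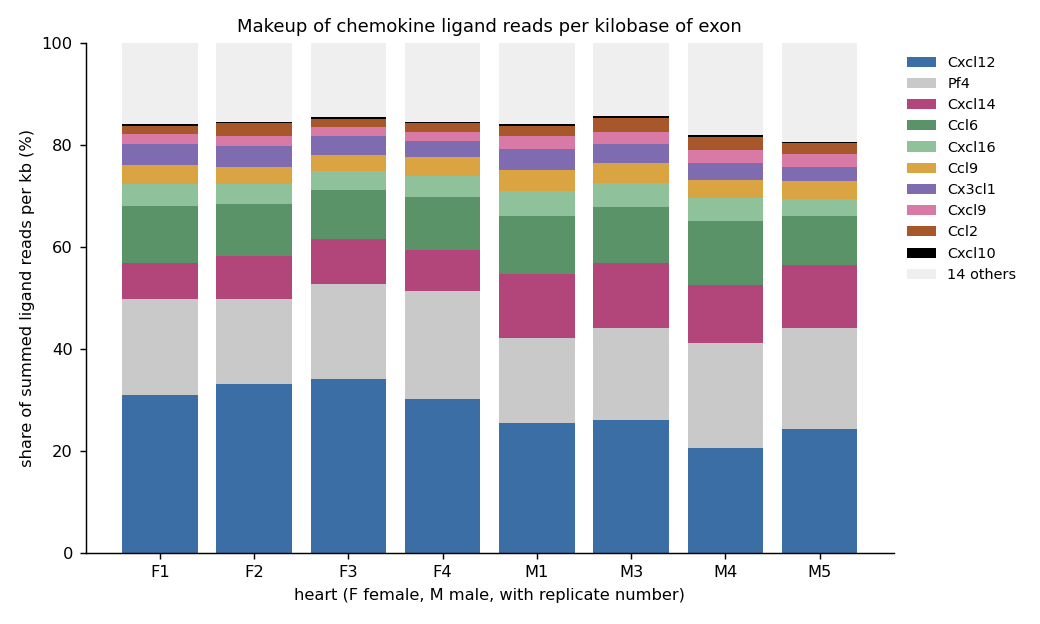
Share of each ligand in the summed normalized reads per kilobase of exon of the 24 measured chemokine ligands (%), as a stacked bar for each heart (F female, M male, with the replicate number). The band of Cxcl12 is wider in the female hearts, at 32.1% on average. That of Cxcl14, picked for its sex difference, is wider in the male hearts, at 12.2% on average.

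Of 24 chemokine receptors listed, 17 were measured. None of the 17 passed limma, 2 had an unadjusted p under 0.05, and edgeR and DESeq2 each called 0. DESeq2 gave at least Cxcr3, Cxcr6 and Ackr1 no adjusted p and so could not call them. The median log2 difference of the 17 was 0.07, with 6 negative and 11 positive. The receptors followed belong to the ligands other than Cxcl14, for which none was listed. They were the decoy Ackr3, which takes up Cxcl12, and the signalling receptors Cxcr3, Cxcr4, Cxcr6, Cx3cr1, Ccr1 and Ccr2. Ackr1, which binds many chemokines on venules and red cells, was added to them.

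Ackr3 led them per kilobase of exon, with a mean of 1372 normalized reads per kb, and had normalized read counts of 5063, 4727, 4495 and 4362 in female hearts and 4802, 4259, 4926 and 4126 in male hearts. The sexes overlapped for Ackr3, with a log2 difference of 0.04 (95% interval -0.10 to 0.19, limma adjusted p = 0.802). Cxcr4, the signalling receptor of Cxcl12, had 284, 328, 356 and 242 in female and 392, 466, 421 and 296 in male hearts. For Cxcr4, male replicate 5 lay within the female range and the other 3 male hearts lay above all female hearts. The log2 difference of Cxcr4 was -0.37 (limma adjusted p = 0.271), and without male replicate 5 it was -0.51 (limma adjusted p = 0.0499).

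Cx3cr1, which marks resident macrophages and is the receptor of Cx3cl1, had 543, 610, 439 and 370 normalized reads in female and 675, 721, 694 and 380 in male hearts. Again 3 male hearts were above all female hearts and male replicate 5 was near the lowest female heart. The log2 difference of Cx3cr1 was -0.31 (limma adjusted p = 0.610), and without male replicate 5 it was -0.53 (limma adjusted p = 0.143). Ccr2, the receptor of Ccl2 on monocytes, had 263, 244, 137 and 155 normalized reads in female and 336, 259, 241 and 173 in male hearts, which overlapped (log2 difference -0.35, limma adjusted p = 0.581, and -0.52 to -0.19 without 1 heart). Ccr1, which Ccl6 and Ccl9 bind, had 94.1, 105, 77.7 and 65.8 in female and 59.5, 47.3, 116 and 70.0 in male hearts. Its highest and its lowest heart were both male (log2 difference 0.28, limma adjusted p = 0.645), and without male replicate 3 the difference was 0.10, without male replicate 4 it was 0.53.

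Cxcr3, the receptor of Cxcl9 and Cxcl10 on activated T and NK cells, was near the lower end of the table, with 17.5, 10.7, 19.2 and 12.2 normalized reads in female and 17.4, 12.0, 11.9 and 8.45 in male hearts. Cxcr6, the receptor of Cxcl16, had 33.0, 17.5, 9.58 and 15.8 in female and 17.4, 12.9, 15.3 and 12.1 in male hearts. Both overlapped between the sexes, with wide intervals. The log2 difference was 0.24 for Cxcr3 (95% interval -0.41 to 0.89, limma adjusted p = 0.755) and 0.26 for Cxcr6 (95% interval -0.47 to 0.98, limma adjusted p = 0.767). Single hearts set the direction of Cxcr6, whose difference was -0.040 without female replicate 1, the highest heart, and 0.52 without female replicate 3, the lowest. For Cxcr3 it was 0.085 to 0.41 without 1 heart. Ackr1 had between 22.4 and 33.9 normalized reads over the female hearts and between 22.9 and 32.0 over the male hearts, which overlapped, with a log2 difference of 0.07 (limma adjusted p = 0.913) that turned to -0.0095 without female replicate 2 and to -0.017 without male replicate 5.

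**Figure D4:**
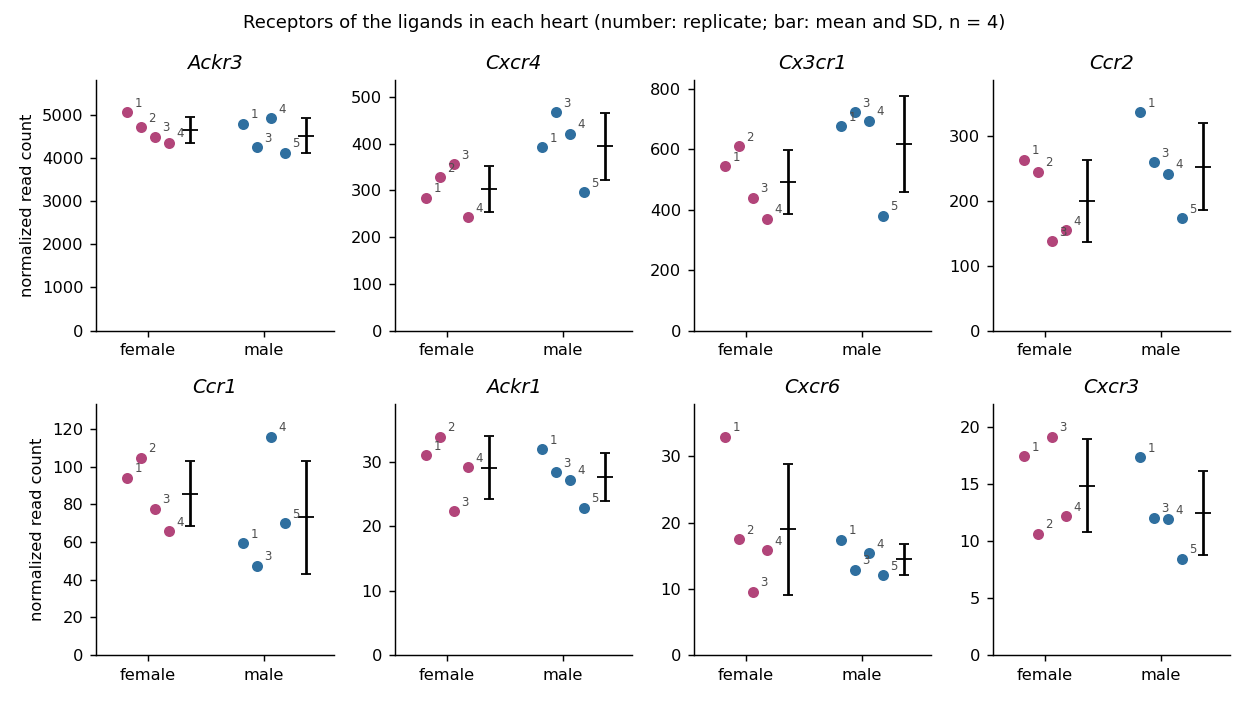
Normalized read count in each heart of the 8 receptors followed, none of them listed for Cxcl14 (points, with the replicate number). The mean and SD of each sex are shown (n = 4). The sexes overlap in all 8 panels. Male replicate 5 lies below the other 3 male hearts in every panel but that of Ccr1, at 296 for Cxcr4 and at 380.1 for Cx3cr1.

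All 7 listed proteases that shed or trim chemokines were measured, and 0 passed limma, edgeR or DESeq2, with 0 at an unadjusted p under 0.05. Their median log2 difference was -0.04. Adam10 and Adam17, the sheddases of Cx3cl1 and Cxcl16, had log2 differences of 0.00 and -0.08, and that of Dpp4, which inactivates Cxcl12 and Cxcl10 by trimming them, was -0.04; these 3 are named for their roles, outside the naming rule.

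Interferon gamma induces Cxcl9 and Cxcl10, so 18 measured genes of a list of 19 that it induces are set beside them. None of the 18 passed limma or edgeR, 1 (Ciita) passed DESeq2 and 1 had an unadjusted p under 0.05, with a median log2 difference of -0.05. Their summed normalized reads ranged from 16240 to 25306 over female hearts and from 16604 to 23718 over male hearts. The sums overlapped. The levels of Cxcl9 did not, but Cxcl9 was picked for its sex difference, so nothing is read from this contrast. The heart with the highest sum, female replicate 2, was the highest female heart for 17 of the 18 genes and also for Cxcl9. The gene with the smallest p was Ciita, the master regulator of MHC class II genes, with a log2 difference of -0.54 (limma adjusted p = 0.162) that passed without male replicate 5 (-0.71, limma adjusted p = 0.0117), followed by the guanylate-binding protein Gbp6 with -0.24 (limma adjusted p = 0.642). Of 12 genes induced by type I interferon, 0 passed limma, edgeR or DESeq2 and 0 had an unadjusted p under 0.05, and the median log2 difference was 0.04.

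Markers of the cells that can make or sense these ligands were examined in 12 lists. Of 14 macrophage markers 3 were lower in female hearts and 11 did not pass, while 0.687% of all genes were called lower. An unadjusted p under 0.05 was seen in 9 of the 14. In 5 of them the female hearts lay wholly below the male hearts, beside 4.82% of all genes. All 14 log2 differences were negative, with a median of -0.28, against 49.1% of all genes negative and a median of 0.00. The sum of the 14 was 16915 to 19739 normalized reads in female hearts and 21168 to 24807 in male hearts, without overlap. Among the 12 marker lists only this sum was apart. Of single genes 4.82% had female hearts wholly below male hearts, and no such share is given for sums. The 14 markers were measured in the same hearts and may move together, so their signs are not 14 separate observations. The 3 that passed were C1qa and C1qb, which encode chains of complement C1q, and Csf1r, the receptor of the growth factor CSF1. The log2 difference of C1qa was -0.41 (limma adjusted p = 0.0359), that of C1qb -0.39 (limma adjusted p = 0.0493) and that of Csf1r -0.36 (limma adjusted p = 0.0481). The mannose receptor Mrc1 had a log2 difference of -0.25 (limma adjusted p = 0.0719). These calls were near the threshold, and 0 of 14 passed without female replicate 2, 3 or 4 or without male replicate 1, 3 or 4, while 4 passed without male replicate 5, and DESeq2 called 5. The part of macrophages in the differences of Cxcl14 and Cxcl9 was not tested.

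Fibroblast markers summed to between 88118 and 101412 normalized reads in female hearts and between 94438 and 104319 in male hearts, and overlapped. Of these 9, Lum, a keratan sulphate proteoglycan of collagen fibrils, was higher in female hearts, with a log2 difference of 0.30 (limma adjusted p = 0.00285), and the 8 others did not pass. An unadjusted p under 0.05 was seen in 2 of these 9. Of 10 measured T and NK cell markers 0 passed limma, edgeR or DESeq2 and 1 had an unadjusted p under 0.05, and their sum was 227 to 491 normalized reads in female and 227 to 453 in male hearts. Cd3d and Klrb1c of that list were not in the table. Of 8 endothelial markers 0 passed any of these tools, with 2 at an unadjusted p under 0.05, and the sums overlapped, at 66466 to 72315 in female and 67479 to 73947 in male hearts. Of 8 cardiomyocyte markers, 4 had negative and 4 positive log2 differences and 4 an unadjusted p under 0.05. The 1 called was higher in female hearts, the calcium release channel Ryr2 (log2 difference 0.20, limma adjusted p = 0.0341). Whether that call held without 1 heart is not given here. DESeq2 called 2 of these 8, Ryr2 and the cardiac actin Actc1, which was at -0.19 (limma adjusted p = 0.0796) with every female heart below every male heart. The lists for pericytes and smooth muscle, monocytes and neutrophils, B cells, dendritic cells, mesothelium, adipocytes and Schwann cells had 0 genes that passed limma or edgeR, and 1 that passed DESeq2, the adipocyte gene Cidea. Their sums overlapped between the sexes. For those 7 lists the counts at an unadjusted p under 0.05 were 0, 0, 0, 1, 0, 1 and 1, in that order.

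**Figure D5:**
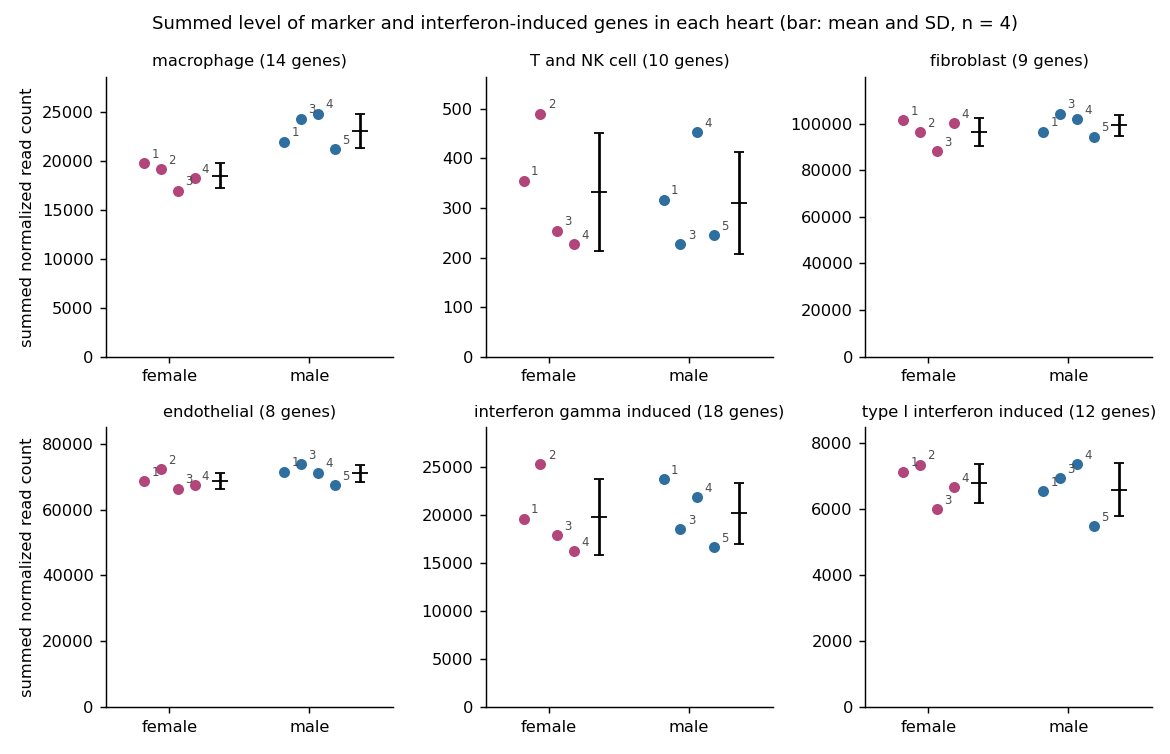
Summed normalized read count of 4 lists of cell type markers and 2 lists of interferon-induced genes in each heart (points, with the replicate number), with the mean and SD of each sex (n = 4). The sexes are apart for the macrophage markers, where female hearts reach 19739 and male hearts start at 21168, and overlap in the other 5 panels. Among all single genes, female hearts lie wholly below male hearts in 4.82%.

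The genes whose profiles over the 8 hearts were most like those of Cxcl14 and Cxcl9 were found among 12816 genes with a mean of at least 50 normalized reads, by the root mean square difference of log2 levels centred on each gene's mean. Nearest to Cxcl14 were Lgi1 (0.109), Nkain1 (0.119), Tmem150c (0.138), Cxcl9 (0.144) and Capn3 (0.154). Nearest to Cxcl9 were Acsm5 (0.0777), Clec10a (0.0830), Slc11a1 (0.0998), Tmem150c (0.107) and Prkab2 (0.108). In each of these genes the female hearts lay wholly below the male hearts, which follows from likeness to genes picked for that. Clec10a encodes a C-type lectin of macrophages and dendritic cells, and Slc11a1 encodes a metal transporter of the macrophage phagosome. Capn3 is the calpain best known from skeletal muscle, and Prkab2 encodes a subunit of AMP-activated protein kinase.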

How the data were processed

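Whole-heart RNA of 8 mice was sequenced. The deposited table gives 1 signal column per heart: read counts after division by the size factor the authors used for that heart. This follows from the values, since all of them (100%) were whole multiples of what 1 read is worth, within 0.001 reads, and whole reads were recovered from them. Beside these stand the authors' log2 fold change, p-value and adjusted p-value, female against male, per the file headers. The build was mm10, per the submitters' processing notes. How the reads were aligned, counted by strand, filtered and tested is not stated in the labels or headers. No gene had fewer than 81 reads in all hearts together, so rarer transcripts are not analysed here. DESeq2 on the recovered reads called the 690 genes that the authors' deposited table calls, with log2 values within 2.5e-04.

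The design named edgeR for raw counts and limma for normalized values. As the values are normalized, limma 3.58.1 (trend and robust, R 4.3.3) was fitted to log2(value + 1) of all 8 hearts without covariates. Differences are female minus male, p-values were adjusted over 17911 genes by Benjamini-Hochberg, and genes were called at an adjusted p under 0.05. Each adjusted p is from this fit unless another tool is named. A gene needed a value of at least 1 in 4 hearts, which removed 0 genes. The + 1 makes changes of low genes look smaller. edgeR 4.0.16 (quasi-likelihood, TMM) on the recovered reads called 216 genes. The script was tested on simulated data. Between pairs of same-sex hearts the chi-square per degree of freedom was 8.21 to 18.4, more than the sampling of reads alone gives. This cannot show that libraries come from different animals. Each library counts as a sample because the labels tie it to an individual heart.

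Exon lengths and positions are from GENCODE vM21, which held 17869 of the 17911 identifiers, and promoters from RefSeq (GRCm38.p6), which held 7 of the 9 ligands, not Cxcl16 and Ccl2.

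The ligands and the 18 gene lists were chosen with earlier results of these data known. Named were all 9 ligands, any gene of the ligand, receptor and protease lists that passed, and the receptors of the ligands other than Cxcl14. Up to 4 genes of smallest p in each other list were also named. So were the 5 genes nearest to Cxcl14 and to Cxcl9, leaving out predicted genes and pseudogenes. How many were taken per list, 2 of the interferon gamma list, 4 macrophage and 1 fibroblast genes, was set after the values were seen, as were the names Cxcl5, Ccl11, Adam10, Adam17, Dpp4, Pf4, Ccl3, Ccl28, Ryr2, Actc1 and Cidea. Alternatives were edgeR with TMM or upper quartile factors, DESeq2 1.42.0, limma-voom, other pseudocounts and filters, leaving out each heart, replicate blocks, a covariate of total reads, and a fit of the 5 hearts with the most reads. The count of macrophage markers under them was added after seeing the data.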

Additional observations from a re-analysis of the deposited data

Results flagged for a closer look

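In each sex the 4 hearts were examined for a heart that stood far from the other 3, over 63 genes and so 126 groups of 4, and 11 groups held such a heart. Chance alone gives about 1 in 20 groups, or 6.3 here. The values below are normalized read counts.

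Among the 9 ligands, Cxcl16 in male replicate 5 was 486, while the other male hearts had 667 to 675, and Ccl2 in female replicate 2 was 128, while the other female hearts had 77.7 to 80.4. Male replicate 5 was also far below the other male hearts for the receptor Cx3cr1 (380.1, others 675 to 721), for Gbp6 (490, others 758 to 793) and for the sheddase Adam10 (3534, others 3931 to 3994). For Ppbp, which encodes a platelet chemokine, male replicate 5 was far above them (288, others 67.7 to 70.7), and so was female replicate 4 among the female hearts (106, others 28.7 to 36.9). These are the 2 hearts with the fewest reads. Female replicate 2 was above the other female hearts for Gbp6 (812, others 498 to 543) and below them for Capn3 (94.1, others 104 to 105). C1qb was low in female replicate 3 (1870, others 2079 to 2113), and the monocyte chemokine Ccl12 was high in male replicate 4 (63.9, others 22.9 to 29.0).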

How the results depend on the processing

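Cxcl14 and Cxcl9 were picked for their differences and had no overlap between the sexes. Leaving out 1 heart could therefore not turn their direction. The direction was the same in all 20 alternatives, described without a test, and nothing is read from this. Of the 24 ligands 2 were called, and DESeq2 called 5, adding Cxcl12, Ccl9 and Ccl11. The covariate of total reads gave 4, adding Cxcl5 and Ppbp, and the 5 hearts with the most reads 1 (Cxcl14), while leaving out 1 heart gave 2 to 3. Counts of ligands here and under the blocks below include the picked Cxcl14, and most also the picked Cxcl9, so nothing is read from their totals. Of the 17 receptors 0 were called, and leaving out 1 heart gave 0 to 2, the 2 being Cxcr4 and Ccrl2 without male replicate 5. Over the whole table of 17911 genes the count of 208 (1.16%) became 690 (3.85%) with DESeq2. It was 156 with the covariate and 156 with the 5 hearts with the most reads. When 1 heart was left out it was 77 (without female replicate 2) to 516 (without male replicate 5). Among the ligands and receptors followed, the direction of Cxcl10 turned with the covariate (0.13). Without 1 heart it turned for Cx3cl1 (-0.074 to 0.14), Cxcr6 (-0.040 to 0.52) and Ackr1 (-0.017 to 0.18). Turns under replicate blocks are given below. The difference of Cxcr6 over all hearts, 0.26, was no smaller in size than that of Ccl9, -0.25, whose direction did not turn. The causes were not tested.

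No label says that the replicate numbers pair hearts. Same-numbered hearts of the 2 sexes correlated at 0.217, -0.0624 and -0.0886 for the title numbers 1, 3 and 4, and at 0.179 for code number 5. No correlations of differently numbered hearts are given to set beside these, so they cannot decide whether hearts are paired. With a replicate block by library code number, 28 genes, 1 ligand (Cxcl14) and 0 receptors were called. With a block by title number these were 148 genes, 3 ligands, Cxcl12 added (limma adjusted p = 0.0355), and 1 receptor. Under the block, in the order title and code number, the log2 difference of Cx3cl1 was -0.16 and -0.055 and that of Ackr1 -0.093 and -0.013, and Ackr3 was at -0.007 with the title number. Both blocks use 6 hearts.

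With 17 to 51 reads of Cxcl10 in a heart, depth limits what can be said of Cxcl10, and likewise of Cxcr3 and Cxcr6.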
